A study of Mus musculus with 4 samples.

Results

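The comparison described here sets the colon of mice that lack Pla2g10, which encodes a secreted phospholipase A2 (group X), beside the colon of wildtype mice when both had drunk dextran sulfate sodium (DSS). The knockout is called X-KO in the labels and KO below, and the wildtype WT. Both groups were C57BL/6 mice given 1% (w/v) DSS in their drinking water and sampled at day 7. They are taken to be males of 9 weeks, since the age and sex entries of the labels appear to be exchanged. RNA from the colons of 3 mice was mixed for each array, and each group has 1 array. Every value below is therefore a ratio of 2 arrays with no replicate check and no p-value. The labels do not say which part of the gene the deletion removed, and they name no Cre driver or cell type. Naive KO and naive WT colon, with 1 pooled array each and no DSS, are given beside the results as values. Genes entered the comparison when their probe was well above background on the higher of both DSS arrays. The 40 absorptive colonocyte genes compared had a median relative signal of 8.6 in naive WT and 9.71 in naive KO. With DSS it was 9.49 in WT and 6.96 in KO. Since the series holds no other tissue, these levels do not test the tissue label. The background filter left 21499 of 30139 names on the array, and 17263 of the 21499 had a symbol in RefSeq.

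The enzyme is released by epithelial and other cells and cuts fatty acids from membrane phospholipids, among them arachidonic acid and the omega-3 fatty acids. These fatty acids and the eicosanoids made from them act on leukocytes and on the epithelium. DSS damages the colon epithelium, bacteria reach the tissue beneath it, and neutrophils and monocytes enter from the blood. Epithelial repair, acute-phase proteins and matrix enzymes belong to the same injury response.

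Signal on each array was divided by that array's 75th percentile, so a relative signal of 1 equals this percentile. Such levels may be compared between arrays for a gene but not between genes, whose probes differ. Over 399 probes with repeat spots, the median SD of the KO over WT log2 ratio was 0.0426, with a 95th percentile of 0.461. Probes well above background on at least 1 DSS array were split by signal. Their median SD was 0.148 at relative signals under 0.1 (68 probes), 0.0442 from 0.1 to 1 (130) and 0.0292 at 1 or more (133). That spread holds the noise within arrays only and says nothing of the spread between mice. Where the lower array did not measure a gene well above background, its value was replaced by the dimmest signal well above background there, unless its own was brighter, and the fold is written as at least. Of the 21499 genes, 1648 were bounded in this way.

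More genes were past 2-fold on the higher than on the lower side in the KO colon. At least 2-fold higher in KO were 1135 genes (5.28%), and at least 2-fold lower were 489 (2.27%), of which 253 and 222 were bounded. At 4-fold the counts were 162 and 107, of which 83 and 76 were bounded. At 8-fold they were 22 and 18, of which 16 and 12 were bounded. Most genes past 8-fold were thus not measured well above background on the lower array. When backgrounds were corrected with normexp and arrays quantile-normalized, the 2-fold counts were 552 and 273, and 541 and 268 of these genes were among the 1135 and the 489. Higher genes were 69.9% of those past 2-fold, against 76.8% where both DSS arrays had to be well above background (882 and 267 genes) and 54.5% with no filter and no floor (1651 and 1381). The median log2 ratio of all genes was -0.08, with quartiles of -0.26 and 0.16, and 38.6% of genes lay above 0. Thus in this scaling the median gene was slightly lower in KO, while more genes passed 2-fold on the higher side. The size of that median depends on the scaling, at -0.11 with median scaling and -0.04 with quantile normalization. Genes with a relative signal of 10 or more on the higher array were 2-fold higher in 32 of 2276 cases and 2-fold lower in 13. Under 0.1, the counts were 462 and 279 of 5877 genes. Other probes of the same gene gave a check within the arrays. Of 170 higher genes with another probe, the other probes lay on the same side of 0 in 140 and were at least 2-fold higher in 96. For 58 lower genes the numbers were 48 and 30. Over all 5092 genes with another probe, the other probes lay above 0 in 2254 and were at least 2-fold higher in 223. Among the brightest genes past 2-fold were the alpha-globin Hba-a2 on the higher side (23.2 in DSS WT and 60.0 in DSS KO) and the water channel Aqp8 on the lower side.

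**Figure D1:**
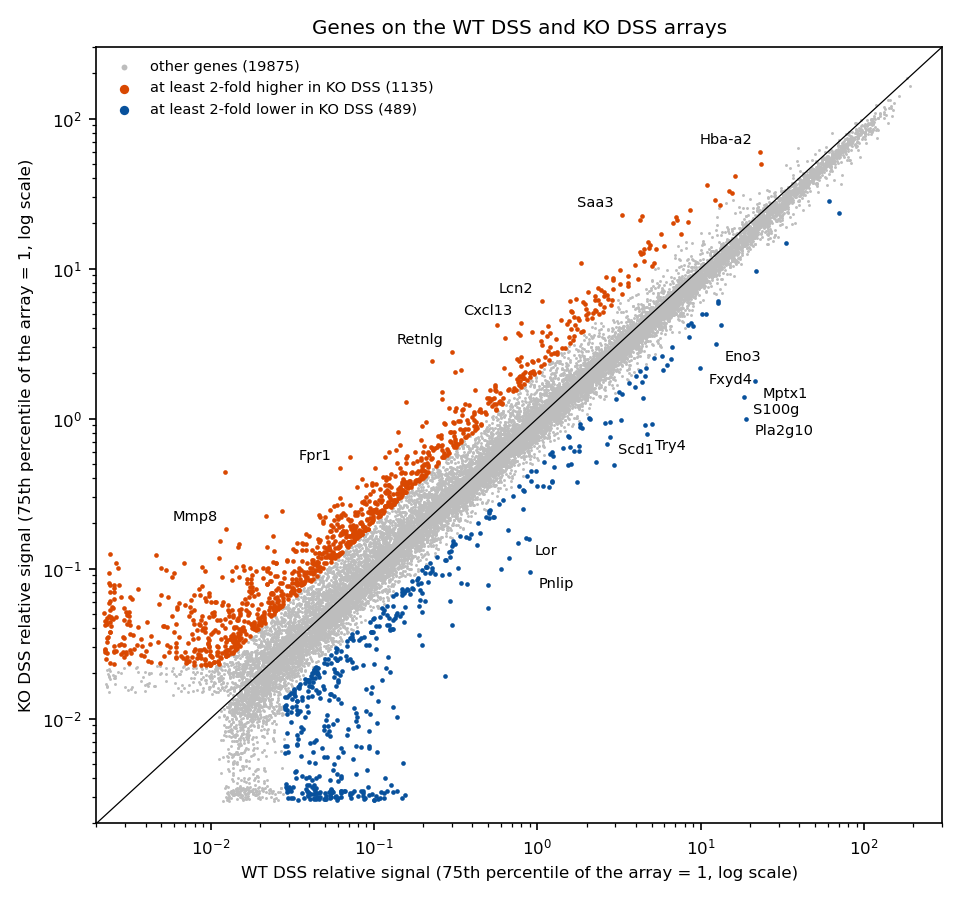
Relative signal of 21499 genes on the DSS WT array (x axis) and the DSS KO array (y axis), both on log scales, with the line of equal signal. Orange points are the 1135 genes at least 2-fold higher in KO and blue points the 489 at least 2-fold lower; Pla2g10, S100g and Mptx1, with log2 ratios of -4.26, -3.74 and -3.59, lie far below the line.

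The targeted gene checked the labels. Pla2g10 had a relative signal of 15.9 in naive WT, 1.70 in naive KO, 19.1 in DSS WT and 0.997 in DSS KO. Both KO arrays lay below both WT arrays, and with DSS KO was 19.1-fold lower (log2 ratio -4.26). Its only probe lies on chromosome 16, 13715169 to 13715228 in mm9 (minus strand), and the labels do not state whether that stretch was deleted. The KO arrays still read the probe well above background, and that remaining signal cannot be taken as intact transcript. The first 30 of the probe's 60 bases, shown because the check rests on this probe alone, are the following.
Pla2g10 probe: ggcttggctgtggtaataacattgccacat

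Other phospholipase A2 genes differed less between the arrays. Of 29 phospholipase A2 and related genes compared, Pla2g10 included, 1 was at least 2-fold higher in KO, where 5.28% of all genes were. At least 2-fold lower were 4 (2.27% of all genes were), of which Pla2g10 itself was 1, and the median log2 ratio was -0.10. The higher one was Pla2g7, which inactivates platelet-activating factor and had a relative signal of 1.01 in DSS WT and 2.46 in DSS KO. Its naive values were 0.883 and 0.950, so the DSS KO array was the high one of 4. Pla2g2a, a bactericidal enzyme of the mucosa, stood at 0.726 in DSS WT and 1.22 in DSS KO, a log2 ratio of 0.75. C57BL/6 mice are known to carry a disrupted Pla2g2a, which a probe signal does not show. Pla2g5, another secreted enzyme, stood at 5.41 and 4.79, and the cytosolic Pla2g4a, which supplies most arachidonic acid for eicosanoids, at 3.37 and 3.16. These 2 genes differed by 1.13-fold and 1.07-fold.

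On the lower side, Pla2g3 had a relative signal of 0.910 in DSS WT and 0.381 in DSS KO. In naive colon it was higher in KO (1.07 against 0.668). Plaat1, an acyltransferase with phospholipase activity, stood at 0.103 in DSS WT and 0.0413 in DSS KO. Pla2g1b, the phospholipase of pancreatic juice, was at least 4.20-fold lower in KO, but its other probe gave a log2 ratio of -0.19. It is also a member of the pancreatic list described further on, where most genes were lower in KO. The receptor gene Pla2r1, which binds secreted phospholipases, had a log2 ratio of 0.95.

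Eicosanoid genes lay evenly on both sides of 0: 18 of 36 were higher in KO and 18 lower, where 38.6% of all genes lay above 0. Their median log2 ratio was 0.03 (-0.01 to 0.07 under the alternatives, so its sign is not settled). At least 2-fold higher were 4 of them, where 5.28% of all genes were. Ptgs2, the inducible cyclooxygenase, had a relative signal of 0.372 in DSS WT and 0.981 in DSS KO. Ptgs1, the constant form, was at 2.04 and 2.51. Ptges, which makes prostaglandin E2, was at 16.2 in DSS WT with a log2 ratio of -0.002 by its brightest probe, while its other probe gave 1.07. Downstream of it, the breakdown enzyme Hpgd (log2 ratio -0.42), the uptake carrier Slco2a1 (-0.54) and the receptor Ptger4 (-0.15) lay below 0, and the receptor Ptger2 (0.64) above it. In the leukotriene branch, Alox5ap stood at 1.11 in DSS WT and 2.58 in DSS KO, while Alox5 itself was at 0.350 and 0.331. The receptor gene Ltb4r1 had a log2 ratio of 0.43 and Ltb4r2 one of -0.70. Cyp4f18, which breaks down leukotriene B4 in neutrophils, was 2.28-fold higher in KO, and Alox15 was at least 2.13-fold higher, near the limit of detection. The genes at least 2-fold higher in this list were thus Ptgs2, Alox5ap, Cyp4f18 and Alox15.

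Neutrophil genes were among those with the highest ratios. Of 30 markers compared, 17 were at least 2-fold higher in KO and 2 lower, with a median log2 ratio of 1.62 (1.03 with normexp and quantile normalization). Retnlg, a resistin-like protein of granulocytes, had a relative signal of 0.302 in DSS WT and 2.76 in DSS KO and was not well above background in naive colon. Fpr1, a receptor for bacterial formyl peptides, stood at 0.0616 and 0.469, and its relative Fpr2 at 0.102 and 0.471. The calprotectin subunits S100a8 and S100a9, which bind calcium and metal ions in neutrophil cytoplasm, differed by 5.84-fold and 5.17-fold. S100a9 went from 4.35 in DSS WT to 22.5 in DSS KO, and from 0.060 in naive WT to 0.254 in naive KO. Thus the KO array was the higher one both with and without DSS. The collagenase Mmp8 of neutrophil granules was at least 14.7-fold higher, since DSS WT did not measure it well above background. Further members at least 2-fold higher were the iron-binding Ltf (log2 ratio 1.84), the chemokine receptor Cxcr2 (1.64), the lectin receptors Clec4e (2.18) and Clec4d (1.61), and the decoy receptor Il1r2 (1.90).

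Some members were not higher. The stefins Stfa1 and Stfa3 were 2.57-fold and 2.06-fold lower in KO, whereas their cluster neighbours Stfa2 and Stfa2l1 were 4.61-fold and 3.78-fold higher. Stefin genes are near-identical copies and probes may read more than 1 of them, so these values are uncertain. Ly6g (log2 ratio -0.24), Itgam (-0.06), the primary granule genes Elane (-0.34) and Mpo (a bounded 0.61), and Camp (-0.11) did not reach 2-fold by their brightest probes, though another probe of Itgam gave 1.33 and another of Camp 0.43. In bulk colon, more cells of a type and more RNA per cell cannot be told apart.

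The sequences before Saa3, Lcn2 and Retnlg, and before the neutrophil-attracting chemokine genes Cxcl2 and Cxcl3, are shown as examples of higher genes whose promoters hold a motif. They were picked for holding it, and other genes with like ratios, such as S100a8 and Fpr1, are not among the named genes with a match. They come from RefSeq, build GRCm38.p6, and cover the 250 bases before the gene start, 5′ to 3′ on the gene's strand. Capitals mark matches to a C/EBP-like motif (TTGCNNAA, either strand) in the first 3 and to an NF-kB-like motif (GGGANNTTC, either strand) in Cxcl2 and Cxcl3, where matches on both strands overlap. Saa3 is at chr7:46715677-46715926 (minus), Lcn2 at chr2:32387740-32387989 (minus), Retnlg at chr16:48872358-48872607 (plus), Cxcl2 at chr5:90903649-90903898 (plus) and Cxcl3 at chr5:90785851-90786100 (plus).
Saa3: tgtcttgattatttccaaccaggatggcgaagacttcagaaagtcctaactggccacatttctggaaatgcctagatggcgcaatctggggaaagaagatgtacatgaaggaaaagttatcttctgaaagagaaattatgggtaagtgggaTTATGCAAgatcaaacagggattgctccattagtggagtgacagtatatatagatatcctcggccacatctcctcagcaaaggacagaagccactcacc
Lcn2: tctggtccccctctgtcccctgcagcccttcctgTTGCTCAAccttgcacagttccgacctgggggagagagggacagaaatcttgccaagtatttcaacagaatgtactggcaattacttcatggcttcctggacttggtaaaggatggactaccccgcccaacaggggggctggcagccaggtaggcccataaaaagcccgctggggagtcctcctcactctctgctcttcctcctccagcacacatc
Retnlg: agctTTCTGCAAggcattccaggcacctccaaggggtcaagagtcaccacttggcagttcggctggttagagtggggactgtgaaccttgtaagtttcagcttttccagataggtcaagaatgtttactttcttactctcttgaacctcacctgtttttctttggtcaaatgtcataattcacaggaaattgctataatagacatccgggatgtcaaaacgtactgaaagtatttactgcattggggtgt
Cxcl2: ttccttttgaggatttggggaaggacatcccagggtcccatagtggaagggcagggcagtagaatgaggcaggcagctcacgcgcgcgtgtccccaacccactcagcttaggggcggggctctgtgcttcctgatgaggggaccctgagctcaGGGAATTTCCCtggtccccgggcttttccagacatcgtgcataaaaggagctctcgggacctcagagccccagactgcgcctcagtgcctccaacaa
Cxcl3: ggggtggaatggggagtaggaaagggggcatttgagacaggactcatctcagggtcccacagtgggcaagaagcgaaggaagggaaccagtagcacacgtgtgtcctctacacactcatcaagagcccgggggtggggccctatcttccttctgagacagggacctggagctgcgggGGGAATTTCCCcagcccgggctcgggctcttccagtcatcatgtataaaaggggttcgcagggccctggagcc

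Both motifs are short and common. Of 13510 compared genes with a promoter sequence, 8.30% held the C/EBP-like letters in this window. The letters were held by 84 of 558 genes at least 2-fold higher (15.1%) and by 36 of 314 at least 2-fold lower. The share among the lower genes thus also lay above that of all genes, though below that of the higher genes. For the NF-kB-like letters the shares were 3.12%, 6.09% (34 genes) and 3.82% (12 genes). S100g, among the lowest of all genes in KO, held both. A match is a description of the letters and not a site of binding.

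Of 32 chemokine genes compared, 14 were at least 2-fold higher in KO and 1 was lower, 9 lay below 0, and the median log2 ratio was 0.76. The neutrophil attractants Cxcl2 and Cxcl3 stood at 0.0567 and 0.0623 in DSS WT and at 0.260 and 0.293 in DSS KO, and neither was well above background in naive colon. Cxcl13, which draws B cells, had a relative signal of 0.789 in DSS WT and 4.32 in DSS KO, with naive values of 0.588 and 0.717. So DSS WT stayed near the naive arrays and DSS KO alone was high. Ccl3 and Ccl4, attractants of monocytes and T cells, differed by 3.22-fold and 4.06-fold. The interferon-induced Cxcl10 was at 3.94 and 4.87 (log2 ratio 0.31). Ccl17, a ligand for T helper type 2 cells, was the lower one, at 0.296 in DSS WT and 0.130 in DSS KO.

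Cytokine and cytokine receptor genes were at least 2-fold higher in KO in 15 of 43 cases and lower in 1, with a median log2 ratio of 0.55 (0.32 with normexp and quantile normalization). Il1b, the inflammasome cytokine, stood at 1.07 in DSS WT and 3.10 in DSS KO, and Il1a at 0.0122 and 0.0402. Il17a, the cytokine of Th17 cells, was at 0.0316 and 0.0928. Il1a and Il17a were thus under 0.1 on both DSS arrays, where repeat spots varied most. In DSS WT, Il1a lay near the dimmest signal well above background there (0.0113). Csf3, which mobilises neutrophils from the marrow, was at least 4.77-fold higher in DSS KO, although in naive colon WT was the higher array. Il19, of the interleukin-10 family, was 4.54-fold higher, and its other probe gave a log2 ratio of 1.15. Il33 and its receptor Il1rl1 were 2.68-fold and 2.82-fold higher. Tnf (log2 ratio 0.57), Il22 (0.55) and Ifng (0.19) lay under 2-fold. Lower in KO was the epidermal-type cytokine Il1f6, at least 2.37-fold.

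Acute-phase and serpin genes had a median log2 ratio of 1.29 (0.90 with normexp and quantile normalization), with 17 of 27 at least 2-fold higher and 1 lower. Saa3, a serum amyloid made locally in inflamed tissue, had a relative signal of 3.30 in DSS WT and 22.6 in DSS KO. Its naive values were 0.204 and 0.30. Serpina3n, an inhibitor of neutrophil serine proteases, went from 0.633 to 3.46, and Serpina3m from 0.0717 to 0.557. The Serpina3 genes are a family of close copies whose probes may share targets. Lcn2, which withholds iron from bacteria, went from 1.07 to 6.05, and the pentraxin Ptx3 from 0.0386 to 0.146. Orm1 was at least 3.09-fold lower in KO. Complement genes were at least 2-fold higher in 10 of 23 cases (median 0.93), with C3 at 16.2 in DSS WT and 41.2 in DSS KO, and C4b at 3.19 and 9.72.

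Interferon-induced genes lay closer to 0. Of 44 compared, 6 were at least 2-fold higher in KO (5.28% of all genes were), 15 lay below 0, and the median log2 ratio was 0.13. The ubiquitin-like Ubd was the largest, at 0.780 in DSS WT and 3.59 in DSS KO, followed by Nos2, the inducible nitric oxide synthase (2.26 and 6.14), and Ido1, which breaks down tryptophan (0.379 and 0.930). The nucleic acid sensor Zbp1 was at 8.4 and 5.75, and its other probe lay on the other side of 0. Pattern recognition genes had the same median of 0.13. Outside the formyl peptide receptors and Clec4e, the member farthest from 0 was Tlr5, the flagellin receptor, at 0.103 in DSS WT and 0.0291 in DSS KO.

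Markers of other leukocytes were higher as well, at smaller ratios. Of 30 monocyte and macrophage markers, 18 were at least 2-fold higher, 29 lay above 0, and the median log2 ratio was 1.04. Marco, a scavenger receptor, stood at 0.0498 in naive WT, 0.198 in naive KO, 0.263 in DSS WT and 1.35 in DSS KO. The chitinase-like Chil3 went from 1.07 in DSS WT to 3.80 in DSS KO, Arg1, which depletes arginine, from 0.179 to 0.601, and Ccr2, the receptor that brings in blood monocytes, from 0.174 to 0.502. Class II and dendritic cell genes lay above 0 in 21 of 21 cases (median 0.95), with H2-Aa at 1.60 and 5.24, and the invariant chain Cd74 at 8.36 and 20.5. Mast cell proteases led the list of 17 mast cell, basophil and eosinophil markers (8 at least 2-fold higher, median 0.75). Mcpt1 and Mcpt2, of mucosal mast cells, were 4.11-fold and 4.46-fold higher, and Mcpt4, of connective tissue mast cells, 3.33-fold. With normexp and quantile normalization the median of this mixed list was 0.43 and 4 members passed 2-fold.

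Of 17 B and plasma cell markers, 8 were at least 2-fold higher, with a median log2 ratio of 1.00 against 0.35 in naive colon. With normexp and quantile normalization 4 of them reached 2-fold. Ms4a1 (CD20), a surface protein of B cells, stood at 0.213 in naive WT, 0.375 in naive KO, 0.246 in DSS WT and 0.668 in DSS KO. Both KO arrays lay above both WT arrays for Ms4a1. For T and NK cells the median over markers was 0.63, with 7 of 23 at least 2-fold higher, among them Cd3d (0.178 in DSS WT and 0.374 in DSS KO) and Icos, a costimulatory receptor (0.0529 and 0.142). With normexp and quantile normalization 0 of these 23 reached 2-fold. Nkg7 was at 2.36 and 1.78, and its other probe gave a log2 ratio of 0.76.

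Erythrocyte genes were higher in KO as well, with a median log2 ratio of 1.65 (naive -0.27). Of 9 compared, 7 were at least 2-fold higher and 9 lay above 0. Hbb-bt, a beta-globin, had a relative signal of 1.47 in naive WT, 1.38 in naive KO, 4.27 in DSS WT and 21.2 in DSS KO. Alas2, which starts heme synthesis in red cell precursors, was at 0.0580, 0.0444, 0.124 and 0.596. The summed level of the list was 19.2 and 16.9 in naive WT and KO, 38.9 in DSS WT and 112 in DSS KO, so it was highest on the array where the leukocyte medians were highest. The part of blood in the leukocyte ratios was not tested. Platelet genes were above 0 in 7 of 7 cases (median 0.68), led by the chemokine Ppbp at 0.260 in DSS WT and 1.5 in DSS KO. Endothelial genes had a median of 0.79, with the adhesion molecule Vcam1 at 0.676 and 1.98 and Selp at 0.138 and 0.320.

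**Figure D2:**
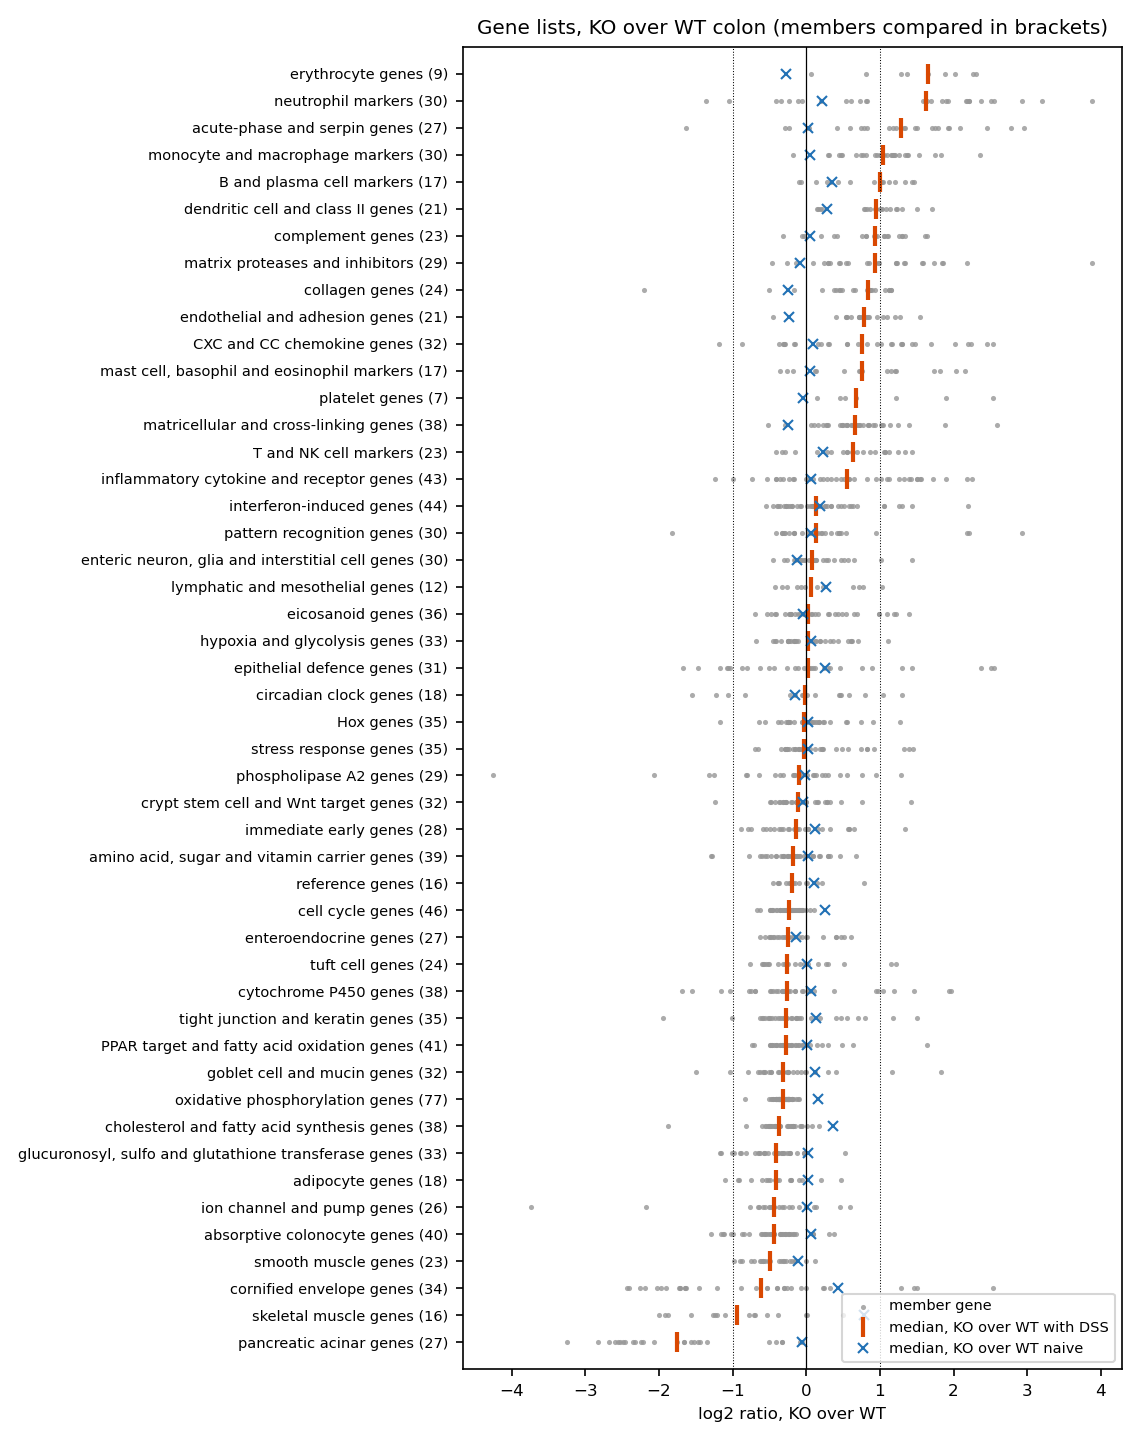
Log2 ratio of KO over WT (x axis) for 48 gene lists, sorted by their DSS median. Grey points are member genes with DSS, and orange bars the DSS medians. Blue crosses are naive medians over the members well above background on the higher naive array, and dotted lines mark 2-fold. Erythrocyte, neutrophil and acute-phase lists lie at the top, with medians of 1.65, 1.62 and 1.29, and pancreatic genes at the bottom, at -1.76.

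Matrix proteases and their inhibitors were at least 2-fold higher in 12 of 29 cases and lower in 0, with a median log2 ratio of 0.93 against -0.08 in naive colon. The stromelysin Mmp10 had a relative signal of 1.73 in DSS WT and 6.30 in DSS KO, the collagenase Mmp13 1.16 and 4.16, and the aggrecanase Adamts4 0.750 and 2.49. In naive colon all 3 lay at or under 0.0937 on both arrays. Adamts5 was 4.52-fold higher by its brightest probe, while its other probe gave a log2 ratio of 0.65. The inhibitor Timp1 stood at 0.282, 0.330, 2.69 and 6.31 in naive WT, naive KO, DSS WT and DSS KO.

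Collagen genes had a median log2 ratio of 0.84 with DSS and -0.25 in naive colon. With DSS 21 of 24 lay above 0, 5 were at least 2-fold higher and 1 lower, and the difference between conditions was not tested. Col1a1, the main fibrillar chain, stood at 6.26 in naive WT, 4.95 in naive KO, 5.21 in DSS WT and 10.9 in DSS KO. The DSS KO array was thus the high one and the other 3 lay close together. Col18a1 was 2.17-fold higher, and Col4a3, a basement membrane chain, at least 4.63-fold lower near the limit of detection. Among matricellular genes (median 0.66, 36 of 38 above 0 and 8 at least 2-fold higher), Spp1, the osteopontin of macrophages, was 6.04-fold higher at low signal, the cross-linking oxidase Lox 3.68-fold, and the BMP antagonist Grem1 2.06-fold (5.05 and 10.4). Acta2 was lower in KO, with a log2 ratio of -0.52, and this actin of smooth muscle is also counted with the muscle genes below.

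Epithelial genes lay mostly below 0, and some abundant ones were far lower in KO. Over all genes 38.6% lay above 0. Genes with a relative signal of 10 or more on the higher DSS array had a median log2 ratio of -0.21. S100g, the calcium-binding calbindin of the gut epithelium, had a relative signal of 10.9 in naive WT, 6.46 in naive KO, 18.5 in DSS WT and 1.39 in DSS KO. DSS WT was the highest of 4 arrays and DSS KO the lowest, a 13.4-fold difference. Mptx1, a mucosal pentraxin, stood at 47.0, 61.3, 21.4 and 1.78 in the same order, so it was lower with DSS in both genotypes and 12.0-fold lower in KO than in WT. Each gene was read by a pair of probes with nearly the same ratios (-3.75 and -3.74 for S100g, -3.59 and -3.55 for Mptx1). The S100g probes overlap on the X chromosome (159399924 to 159399983 and 159399938 to 159399997 in mm9, minus strand) and share most of their bases. The Mptx1 probes lie apart on chromosome 1 (176262673 to 176262732 and 176262532 to 176262591, plus strand). The first 30 bases of each probe are shown so that the overlap can be seen.
S100g probe 1: atacatactgttaataaagcaagttcggag
S100g probe 2: gctgtgcgattatgatacatactgttaata
Mptx1 probe 1: tgaataagggatacacggtggggggtgatg
Mptx1 probe 2: tgttctatgttgggaatatggtagccactt

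Fxyd4, a regulator of the sodium pump in colon, was listed with S100g among ion transport genes and was also at least 2-fold lower, at 9.94 in DSS WT and 2.19 in DSS KO, while both naive arrays and DSS WT lay between 9.31 and 11.3. The list of 26 channel and pump genes had a median log2 ratio of -0.43 (-0.315 with quantile normalization). The sodium channel subunit Scnn1a, at 5.45 and 3.20, was among its lower members. Absorptive colonocyte genes were lower in KO in 36 of 40 cases, with a median of -0.43 (-0.30 with quantile normalization). Of these genes, 5 reached 2-fold in the main scaling and 1 with quantile normalization. Aqp8, the main water channel of surface colonocytes, had a relative signal of 72.0 in naive WT, 75.6 in naive KO, 61.1 in DSS WT and 28.3 in DSS KO. The chloride and bicarbonate exchanger Slc26a3 was at 23.4, 20.2, 10.1 and 5.01, though its other probe gave a log2 ratio of -0.24. Sult1a1, a sulfotransferase, went from 33.3 in DSS WT to 14.9 in DSS KO, the peptide carrier Slc15a1 from 0.277 to 0.113, and the fructose carrier Slc2a5 from 0.534 to 0.220.

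Secretory lineages showed smaller and mixed differences. Goblet cell and mucin genes had a median log2 ratio of -0.32 (-0.22 with quantile normalization). Of 32 compared, 27 lay below 0, where 38.6% of all genes lay above 0. Tff1, a trefoil peptide, was 3.55-fold higher in KO at low signal, whereas Tff2, its relative, was 2.82-fold lower (0.155 in DSS WT and 0.0550 in DSS KO). Ang4, a bactericidal angiogenin, was at 13.7 in naive WT, 22.6 in naive KO, 5.2 in DSS WT and 2.54 in DSS KO. Enteroendocrine genes (median -0.25) reached 2-fold in 0 of 27 cases, where 5.28% of all genes were higher and 2.27% lower. Among 24 tuft cell genes (median -0.26), Dclk1 was 2.21-fold higher by its brightest probe, and the lowest of its other probes gave -0.48. Crypt stem cell and Wnt target genes had a median of -0.11, and Msi1, an RNA-binding protein of progenitors, was 2.35-fold lower.

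Epithelial defence genes split: 5 of 31 were at least 2-fold higher and 6 lower, with a median of 0.03 (-0.002 with median scaling and 0.11 with quantile normalization). The higher ones were S100a8, S100a9, Lcn2, Nos2 and Ido1. All of these were also counted above, S100a8, S100a9 and Lcn2 with the neutrophil markers and Nos2 and Ido1 with the interferon-induced genes. Among the lower were the regenerating proteins Reg1 (1.22 in DSS WT and 0.384 in DSS KO) and Reg2 (2.60 and 0.939). Both are also made by the pancreas. The bactericidal lectins Reg3b (log2 ratio 0.06) and Reg3g (0.32) lay near equal on both DSS arrays. Of 33 glucuronosyl, sulfo and glutathione transferase genes, 32 lay below 0 (median -0.41, and -0.27 with quantile normalization). At least 2-fold lower were 3 of them, and 1 with quantile normalization. Over all genes, 38.6% lay above 0, 5.28% were at least 2-fold higher and 2.27% lower. Of 38 P450 genes, 26 lay below 0, 5 were at least 2-fold higher and 4 lower. Among them Cyp2f2 and Cyp2c68 were 3.22-fold and 2.93-fold lower, while Cyp1b1, of stromal cells, and Cyp4f39 were 3.90-fold and 3.82-fold higher at low signal.

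Metabolic genes shifted together by small amounts. All 77 oxidative phosphorylation genes were lower in DSS KO in the main scaling, with a median log2 ratio of -0.32 and 0 at 2-fold, and 74 of them lay above 0 in naive colon (median 0.16). With quantile normalization the DSS median was -0.11 and 3 of them lay above 0. Reference genes gave -0.19 in the main scaling and -0.004 with normexp and quantile normalization, so the size of this shift depends on the scaling. Cholesterol and fatty acid synthesis genes were lower in 35 of 38 cases (median -0.37, naive 0.36). Scd1, which makes oleate, stood out at 2.77 in DSS WT and 0.754 in DSS KO, with naive values of 0.892 and 0.752. DSS WT was the high array for Scd1, and the other 3 lay close together. PPAR target and fatty acid oxidation genes had a median of -0.28, and their only member past 2-fold was Gpr84, a leukocyte receptor for medium-chain fatty acids, at 0.134 and 0.415.

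**Figure D3:**
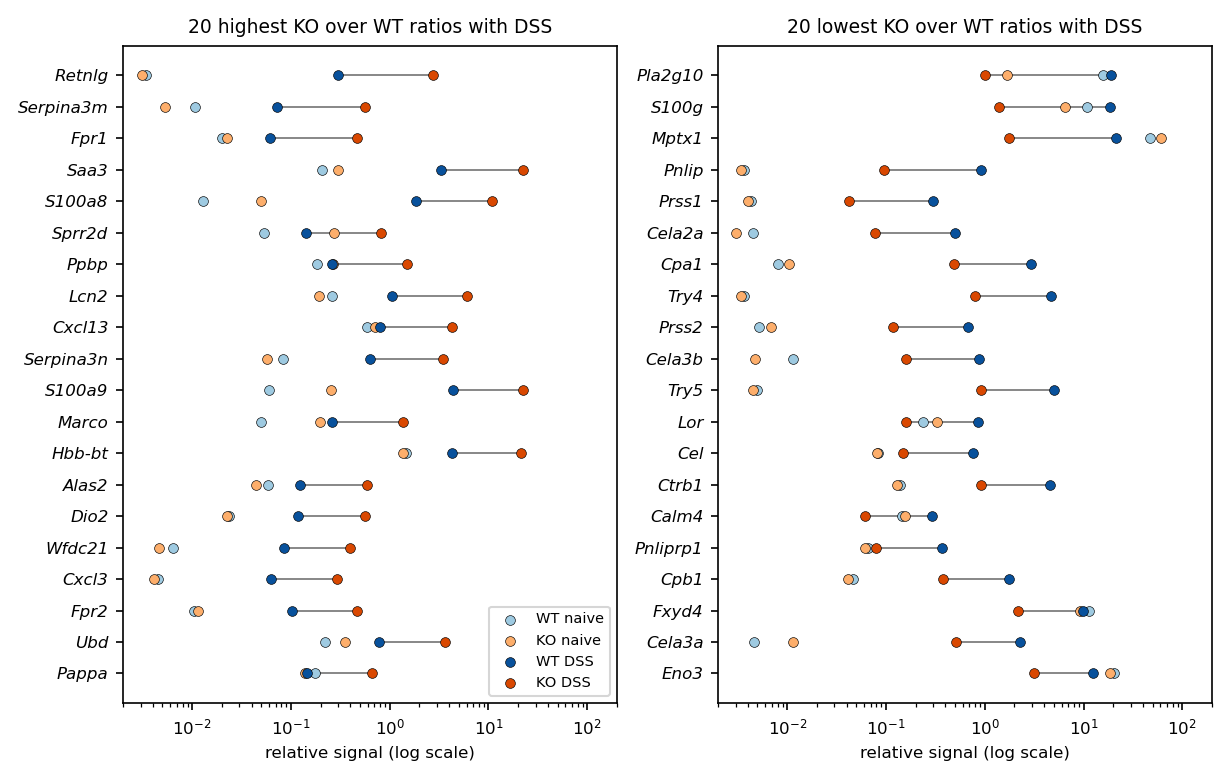
Relative signal (x axis, log scale) of the 20 highest (left) and 20 lowest (right) genes by KO over WT ratio with DSS, on all 4 arrays. The grey line joins DSS WT and DSS KO. Of the 20 genes on the right, 12 belong to the pancreatic list, and Pla2g10 is the lowest, at a log2 ratio of -4.26.

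Pancreatic genes were lower in KO. Of 27 pancreatic genes compared, 21 were at least 2-fold lower in KO and 27 lay below 0 (median log2 ratio -1.76). The naive median of -0.06 covers only the 17 members well above background on the higher naive array, so the medians are of unlike sets. Pnlip, pancreatic lipase, was not well above background in naive colon and stood at 0.907 in DSS WT and 0.0951 in DSS KO. The trypsinogens Try4 (4.69 and 0.794) and Try5 (5.05 and 0.916) and the carboxypeptidase Cpa1 (2.94 and 0.488) had the same order. So the pancreatic enzyme genes were read on both DSS arrays and were highest on DSS WT. Trypsinogen genes are near-identical copies that a probe may not separate. Some members have signal in naive colon of their own, such as Sycn at 76.7 in naive WT and Clps at 4.63, and these too were lower in KO (log2 ratios -1.57 and -1.48). Reg1, Reg2 and Pla2g1b lay on the same side. The part that pancreatic tissue in the samples had in other ratios was not tested.

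Cornified envelope genes, of squamous epithelium, were at least 2-fold lower in 15 of 34 cases and higher in 4. Of these 19, 10 were bounded. The list's median was -0.61, and 0.43 in naive colon over the 25 members well above background on the higher naive array. Lor, loricrin, stood at 0.237 in naive WT, 0.330 in naive KO, 0.858 in DSS WT and 0.159 in DSS KO. Sprr2d went the other way, at 0.0532, 0.271, 0.141 and 0.818, and was higher in KO with and without DSS. Among keratins of the basal squamous layer, Krt5 was 2.83-fold higher in KO, and Krt4, of the layers above it, 2.01-fold lower. Tgm3, a transglutaminase of the same list, was at 2.67 and 0.678. Its other probe gave a log2 ratio of -0.47.

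Smooth muscle genes lay below 0 in 22 of 23 cases, but 0 were at least 2-fold lower (2.27% of all genes were). Their median log2 ratio was -0.50 (-0.36 with quantile normalization, naive -0.11), with the actin Actg2 at 72.1 in DSS WT and 36.4 in DSS KO and desmin (Des) at 4.84 and 2.65. Skeletal muscle genes had a median of -0.94, with 8 of 16 at least 2-fold lower, and a naive median of 0.78 on the opposite side. Myh1, a fast myosin chain, stood at 0.187 in naive WT, 0.50 in naive KO, 0.0862 in DSS WT and 0.0227 in DSS KO. Eno3, the enolase of muscle, was 4.00-fold lower (12.5 and 3.12) without a naive difference (20.5 and 18.6). Adipocyte genes had a median of -0.41, with the hormones Adipoq at 1.55 and 1.07 and Retn at 1.81 and 0.962, each above both naive levels.

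**Figure D4:**
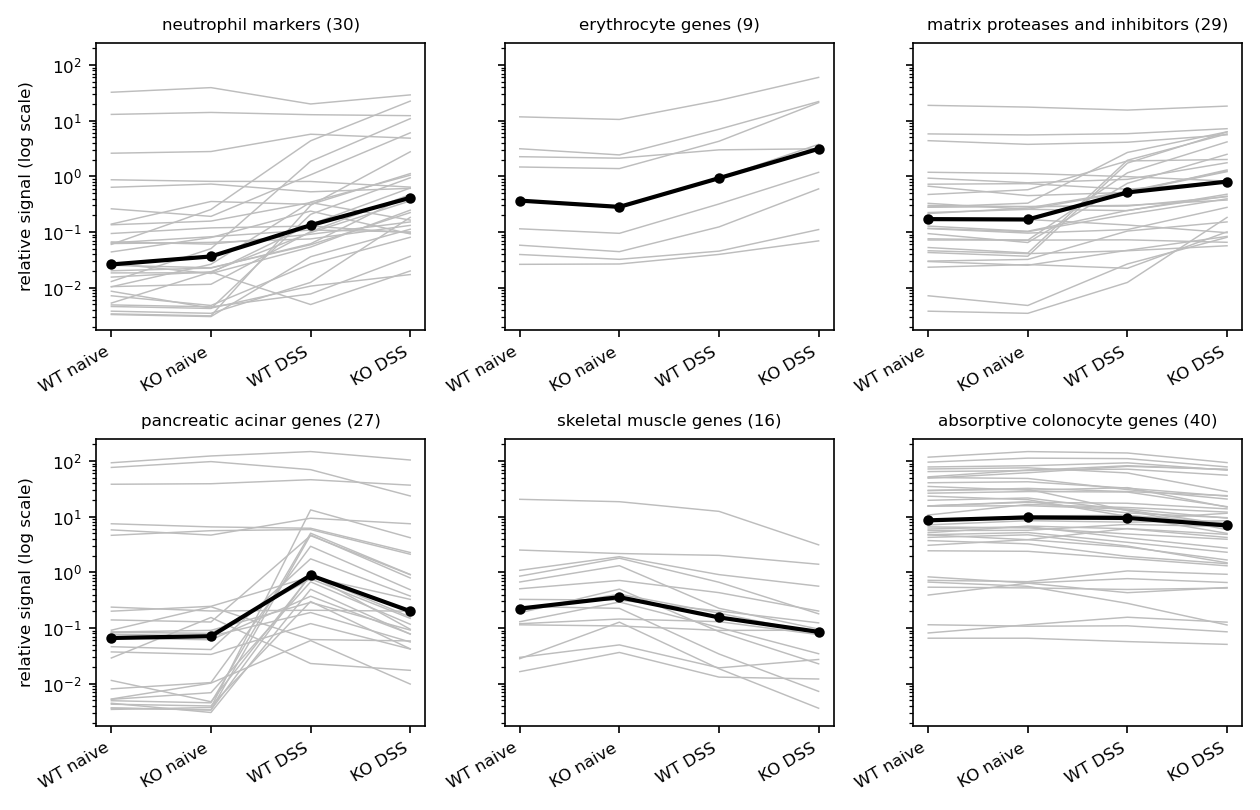
Relative signal (y axis, log scale) of the members of 6 gene lists on the 4 arrays (x axis); grey lines are genes and the black line is the list's median. Neutrophil, erythrocyte and matrix protease medians are highest in DSS KO, the pancreatic median is highest in DSS WT (0.885 against 0.201 in DSS KO), and the skeletal muscle median is highest in naive KO.

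The resistin-like family, small secreted hormones, differed among its members. Retnlg, of granulocytes, was 9.16-fold higher in KO. Retnlb, of goblet cells, stood at 48.3 in DSS WT and 52.6 in DSS KO, and at 21.8 and 43.0 in naive colon. Retnla, of macrophages in type 2 responses and of fat, was at 1.27 in naive WT, 0.572 in naive KO, 1.58 in DSS WT and 0.643 in DSS KO. Both KO arrays were thus below both WT arrays for Retnla. Retn, of fat cells, had a log2 ratio of -0.91 with DSS.

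Most regulatory lists had few members past 2-fold. Over all genes, 5.28% were at least 2-fold higher and 2.27% lower, so few were to be looked for in lists of this size. Cell cycle genes had a median of -0.23 and 0 of 46 past 2-fold, hypoxia and glycolysis genes one of 0.03 with the lactate carrier Slc16a3 2.15-fold higher, and Hox genes one of -0.03. Among stress genes the chaperone Hsph1 was 2.73-fold higher (1.98 in DSS WT and 5.39 in DSS KO). Immediate early genes had a median of -0.15, with Fos at 4.74 and 2.57 and Egr1 at 2.37 and 1.41. Clock genes went both ways. Nfil3 (0.786 and 1.93) and Per2 (0.114 and 0.236) were higher, whereas Nr1d1 (0.710 and 0.304) and Dbp (12.7 and 6.05) were lower. The labels do not state when in the day colons were taken.

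Among the remaining genes at the extremes, Dio2, which activates thyroid hormone, went from 0.118 in DSS WT to 0.556 in DSS KO, and Pappa, a protease that frees insulin-like growth factors, from 0.145 to 0.667. Wfdc21, a secreted WAP-domain protein, was 4.71-fold higher. Of genes with a symbol that 1 DSS array alone measured well above background, not counting clone and Rik names, those with the largest bounds after Mmp8 were Vmn2r52 (at least 9.6-fold higher), Spink6 (7.74-fold) and Usp17le (6.86-fold), and on the lower side Cypt12 (at least 10.9-fold lower), Tigd4 (9.71-fold) and Spata31d1c (8.92-fold). Tnfsf18, the ligand of the receptor GITR, was at least 6.83-fold higher, at 0.0772 in DSS KO. These bounded genes were dim on the higher array as well, with Mmp8 at 0.183 and Cypt12 at 0.154. The largest bound of all, at least 36.1-fold higher, belonged to a transcript without a gene symbol in the table used here (ENSMUST00000103423).

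The naive arrays share no array with the DSS comparison and show what the genotypes looked like without injury. Of 769 genes at least 2-fold higher in DSS KO that both naive arrays measured, 520 (67.6%) were higher in naive KO too, against 54.5% of all 19678 genes so measured. Their median naive log2 ratio was 0.19, and 33 of them were at least 2-fold higher in naive KO and 5 lower. The ratios were thus mostly small before DSS. Among 286 lower genes, 166 (58.0%) were higher in naive KO, 11 by 2-fold, and 5 were lower by 2-fold. Pla2g10, Retnla and S100g are among those lower in both conditions. Across 19316 genes the DSS and naive log2 ratios had a Pearson correlation of 0.0344, given as a description, since genes on the same arrays are not independent. Of the 1135 higher genes, DSS KO was the highest of the 4 arrays for 924. The 489 lower genes had DSS KO as the lowest array in 388 cases and DSS WT as the highest in 336. These orders follow in part from the choice of genes by the same DSS arrays.

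**Figure D5:**
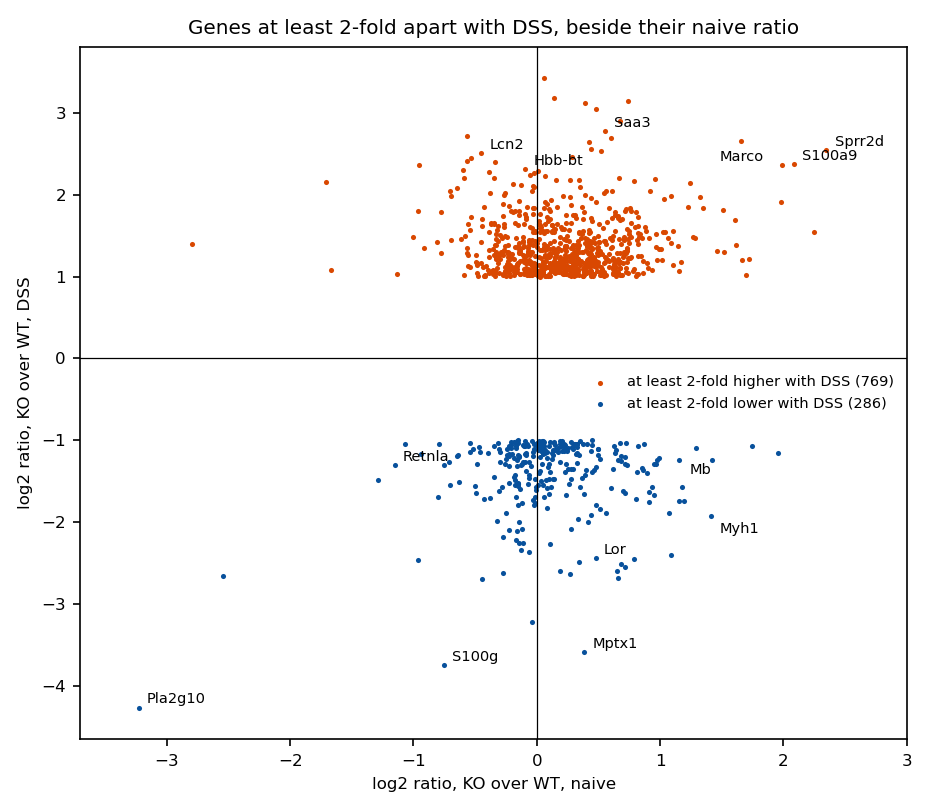
Log2 ratio of KO over WT with DSS (y axis) beside that in naive colon (x axis) for 769 genes at least 2-fold higher (orange) and 286 at least 2-fold lower (blue) with DSS that both naive arrays measured well above background. Most points lie within 1 of 0 on the x axis, Pla2g10 lies at the lower left, and S100a9, Marco and Sprr2d lie at the upper right.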

How the data were processed

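RNA of pooled colons was read on 4 one-colour Agilent mouse arrays. The authors deposited scanner files from Feature Extraction 11.5.1.1, per the submitters' processing notes, with a processed intensity for each spot. The authors also deposited a series table of signal, which equalled the processed intensity divided by each array's 75th percentile. Here log2 values were computed from the deposited intensity after the same division, without control and outlier spots. Spots of a probe were averaged and the brightest probe stood for a gene. Naive medians of lists cover only the members well above background on the higher naive array. Names were matched to RefSeq (GRCm38.p6) by accession, then symbol. Probe positions are mm9, per the file headers. With 1 array in a group no test was run, and arrays limit the precision by their number. Named by rule were the 20 highest and 20 lowest ratios among symbol-named genes well above background on both DSS arrays with a relative signal of at least 0.25, the 8 largest bounded folds each way, up to 6 members of each list by size, all phospholipase A2 and eicosanoid genes and the resistin-like family. Any other gene was chosen after its values were seen. The members and lists were chosen with earlier results of these data known. Alternatives were median scaling, quantile normalization, normexp (limma 3.58.1, R 4.3.3), other filters and the mean of all probes. The scripts were tested on simulated data.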

Additional observations from a re-analysis of the deposited data

Results flagged for a closer look

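Some genes lay on opposite sides with and without DSS, and the difference was not tested, since each group has 1 array. The skeletal muscle list had a median log2 ratio of KO over WT of -0.94 with DSS and 0.78 in naive colon. Myh1 was at -1.92 with DSS and 1.42 in naive colon, Tnnc2 at -1.88 and 1.07, and Mb at -1.56 and 1.18. Lce3a, of the cornified envelope, was at -2.40 and 1.09.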

How the results depend on the processing

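Of the counts of genes at least 2-fold higher and lower in KO (1135 and 489), normexp with quantile normalization gave 552 and 273. Requiring both DSS arrays to be well above background gave 882 and 267, and no filter and no floor gave 1651 and 1381. Among ratios of named genes over the alternatives, 2136 stayed within the spread and 483 moved by more; for list medians the numbers were 287 and 49. The cause was not tested, except that the stricter filter removes bounded genes. No paired analysis was possible because each group has 1 array. Leaving out a replicate was not possible for the same reason. Dim signals near background limit the bounded genes.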
